A study of Homo sapiens with 15 samples.

Results

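The RNA of HCC95 cells with SOX2 knocked down was compared with that of the same cells with TP63 or GRHL2 knocked down, to find what set the loss of SOX2 apart from the loss of another squamous transcription factor. HCC95 is an established cell line of a human lung squamous cell carcinoma (LUSC). Of the 15 RNA-seq libraries of the series, 9 were used, 3 each of cells transfected with the small interfering RNAs (siRNAs) siSOX2b, siTP63b and siGRHL2a. These 9 were chosen because their columns of the deposited table bear 1 common prefix, which the 6 libraries of siKLF5b and of the negative control siNC1 lack. The siSOX2b libraries were set against the equally weighted mean of siTP63b and siGRHL2a, and then against each of them. All groups were unedited HCC95 cells that differed in the siRNA, and no untreated cells were included. Each target was addressed with 1 siRNA in 1 cell line, so the loss of a target and other effects of that siRNA sequence cannot be told apart. The sources used here do not say whether the 3 libraries of a group came from separate transfections, so p-values measure the spread between these libraries, which may be technical.

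SOX2 is a transcription factor of the HMG box family that binds a short motif in the minor groove of DNA. It keeps embryonic stem cells and neural progenitors undifferentiated, specifies the basal cells of the airway and esophagus, and lies in the part of chromosome 3q that is often gained in squamous carcinomas. TP63 is the master regulator of squamous basal cells, and GRHL2 is a grainyhead factor that maintains epithelial junctions.

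The 9 libraries held from 22255856 (siSOX2b replicate 3) to 34229063 (siGRHL2a replicate 1) counts. Reads were counted over the whole span of a gene, introns included, and 77.1% of the 24671 genes tested shared part of their span with another listed one, so that neighbours can share reads. Between 66.1% and 69.0% of the mid-range counts in these 9 libraries were even numbers, against 49.7% to 50.7% in the other 6. The 6 squamous markers TP63, KRT5, KRT6A, KRT17, DSG3 and PKP1 were present in every library, with KRT5 from 5270 to 9500 CPM, the counts scaled to library size. Of 26 markers of immune, endothelial, mesenchymal and other cells, 8 had 0 counts in all 9 libraries. Among these were CD3D and CD3E of T cells, MS4A1 of B cells and DCN of fibroblasts. Others were present in every library, such as CD68 (761 to 1300 counts), CSF1R (570 to 1038), RGS5 (292 to 592) and VWF (84 to 252). Of the 26, 9 were among the genes tested. The summed level of the 26 was 85.6 to 89.6 CPM in siSOX2b, 72 to 80.3 in siTP63b and 87.5 to 97 in siGRHL2a.

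The targeted gene was lowest in its own knockdown. SOX2 (ENSG00000181449.4, plus strand of chromosome 3 of hg38, 181711925 to 181714436) had 9.87, 7.20 and 10.2 CPM in siSOX2b, 30.3, 31.9 and 27.5 CPM in siTP63b, and 18.6, 21.2 and 21.4 CPM in siGRHL2a. The groups did not overlap, and the siSOX2b mean was 36.2% of the mean of the other 6 libraries. The log2 fold change (log2FC) was -1.45 against their mean (standard error 0.101, adjusted p = 2.37e-12 by the quasi-likelihood test of edgeR, Benjamini-Hochberg), -1.73 against siTP63b and -1.17 against siGRHL2a. An exact two-sided permutation test gave p = 0.0238 for 3 against 6 libraries, the smallest that 84 assignments allow, and 0.1 against either group alone. SOX2-OT, the long noncoding RNA gene that contains SOX2 and includes its reads, was also lower, with a log2FC of -1.17. Its counts exceeded those of SOX2 by only 109 to 258 per library.

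**Figure D1:**
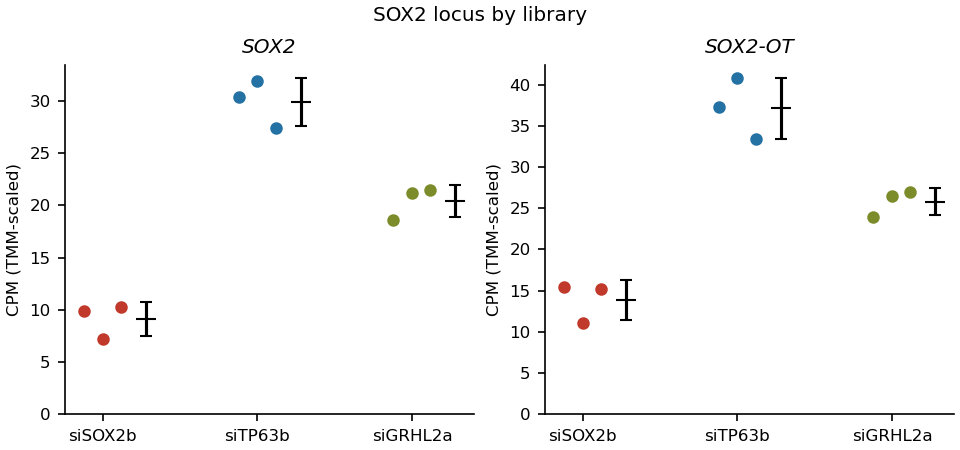
CPM of SOX2 and of SOX2-OT (vertical axes, from 0) in the 3 libraries of each knockdown (points), with the mean and SD beside them (bars). For both genes the 3 siSOX2b libraries lie below the 6 others, and siGRHL2a lies between siSOX2b and siTP63b.

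The siGRHL2a libraries had less SOX2 RNA than those of siTP63b. In a fit with all 15 libraries, SOX2 was below siNC1 by a log2FC of -3.04 in siSOX2b, -1.31 in siTP63b and -1.86 in siGRHL2a, where the column set and the knockdown cannot be told apart. The other factors moved less between the groups. TP63 was higher in siSOX2b than in siTP63b, its own knockdown (log2FC 0.93), and lower than in siGRHL2a (-0.27). GRHL2 had 107, 101 and 97.5 CPM in siSOX2b, 122, 117 and 118 CPM in siTP63b and 92.0, 93.2 and 92.3 CPM in siGRHL2a, its own knockdown. Its log2FC was -0.22 against siTP63b (adjusted p = 0.0033, edgeR) and 0.14 against siGRHL2a (adjusted p = 0.0858, edgeR), and -0.04 against their mean. In the fit of 15 libraries, with the same limit, GRHL2 had a log2FC against siNC1 of -0.56 in siGRHL2a, -0.43 in siSOX2b and -0.20 in siTP63b. GRHL2 RNA was thus only slightly lower in siGRHL2a than in siSOX2b, and these libraries do not show how far GRHL2 itself was lost. KLF5, a Krüppel-like partner factor, differed by 0.18 from the mean of the others. PTPRZ1, a receptor tyrosine phosphatase of neural progenitors, had 74.7, 68.9 and 61.7 CPM in siSOX2b, close to the 76.8, 73.4 and 69.2 CPM of siTP63b and below the 112, 98.2 and 104 CPM of siGRHL2a. Its log2FC was -0.09 against siTP63b (adjusted p = 0.35, edgeR) and -0.61 against siGRHL2a, so its difference was not one from both. Against siNC1, with the same limit, PTPRZ1 had a log2FC of -1.59 in siSOX2b, -1.49 in siTP63b and -0.97 in siGRHL2a. MDK, a heparin-binding growth factor and PTPRZ1 ligand, differed by 0.11 (adjusted p = 0.445, edgeR).

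Genes were called at an adjusted p below 0.05 and a log2FC beyond 0.75 in either direction against the mean of siTP63b and siGRHL2a. A gene was said to differ from both when it also passed that adjusted p, in the same direction, against each of them. Against the mean, 494 genes (2% of those tested) were lower in siSOX2b and 245 (0.993%) were higher. Of these, 287 (1.16%) were lower than in both other knockdowns and 104 (0.422%) were higher than in both. The single comparisons therefore removed 207 of the lower genes, of which 204 had the same sign in both, 138 passed the adjusted p against siTP63b alone and 60 against siGRHL2a alone. Among the 141 higher genes removed, 133 had the same sign in both, 92 passed against siTP63b and 37 against siGRHL2a. The 3 siSOX2b libraries lay below the 6 others for 9.03% of all tested genes and above them for 8.2%. The same was true of 270 of the 287 lower and 97 of the 104 higher genes.

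**Figure D2:**
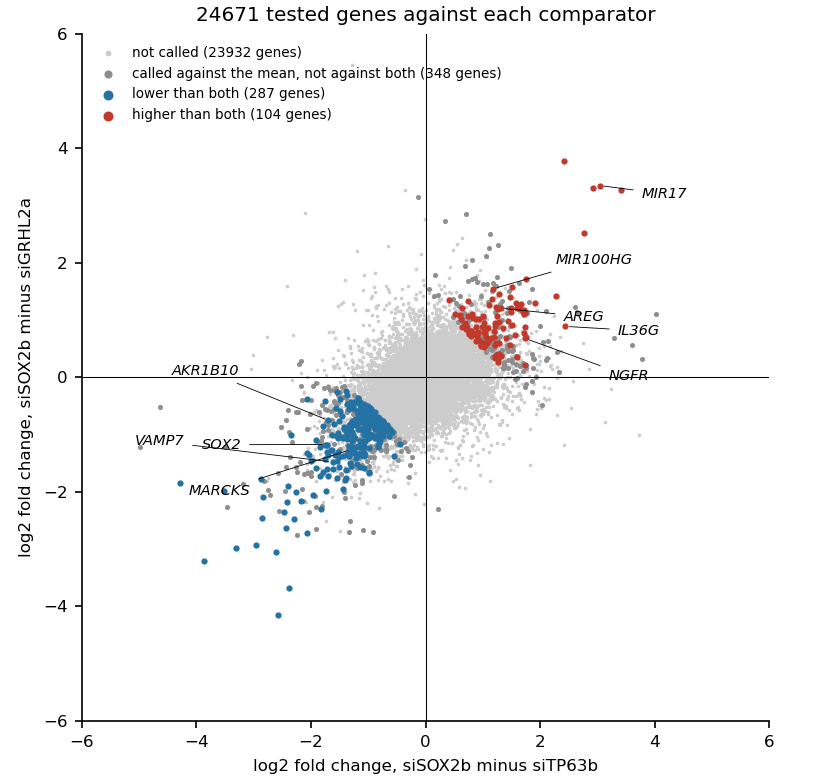
Log2FC of siSOX2b against siTP63b (horizontal axis) and against siGRHL2a (vertical axis) for the 24671 genes tested (points). The 287 genes lower than both (blue) fill the lower left quadrant and the 104 higher than both (red) the upper right, and the 348 genes called against the mean but not against both (dark grey) lie around them.

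The lower genes had a median log2FC of -0.97, reaching -3.53, and 136 of them were lower by at least 1 on the log2 scale. Protein-coding genes made up 64.8% of them and long noncoding RNA genes 31.4%, against 61.9% and 28.3% of all tested genes. Their median span was 42930 bases against 23097 over all genes, while that of the higher genes was 10219.5 bases. The higher genes had a median log2FC of 0.95, and 11 of the 104 (10.6%) were small RNA genes, a class that made up 1.73% of all tested genes and held 0 of the lower genes. In 121 of the lower and 48 of the higher genes an overlapping gene had at least 50% as many counts.

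Among the lower genes, a group stood at nearly the same level in siTP63b and siGRHL2a and well below it in siSOX2b. MARCKS (ENSG00000277443.3, plus strand of chromosome 6, 113857345 to 113863475), an actin-binding substrate of protein kinase C at the plasma membrane, had 34.9, 38.2 and 37.4 CPM in siSOX2b. It had 90.9, 92.9 and 87.8 CPM in siTP63b and 88.2, 90.6 and 85.8 CPM in siGRHL2a. The gap between the groups was many times the spread within them, and the log2FC was -1.28 (standard error 0.0573, adjusted p = 2.26e-16, edgeR).

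VAMP7 (ENSG00000124333.16, plus strand of chromosome X, 155881345 to 155943769), a SNARE protein of late endosomes and lysosomes, had 20.5, 20.8 and 29.8 CPM in siSOX2b against 70.0, 72.3 and 74.0 CPM in siTP63b and 67.9, 65.3 and 63.0 CPM in siGRHL2a. The log2FC was -1.55 (standard error 0.0832, adjusted p = 8.81e-15, edgeR). CETN2, a centrin of the centriole and of nucleotide excision repair, had 8.69, 6.09 and 9.62 CPM in siSOX2b, and 18.1 to 24.2 CPM in the 6 others (log2FC -1.43). AHNAK2, a giant scaffold protein, had 25.1, 15.05 and 20.5 CPM in siSOX2b and 47.2 to 58.9 CPM in the others (log2FC -1.40). CSTL1, a cystatin-like gene, had 4.75, 4.49 and 5.62 CPM in siSOX2b and 10.1 to 13.0 CPM in the others (log2FC -1.29). In all 4 genes the siSOX2b libraries stood below every other library, which the rule that named them required.

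INAVA, which codes for a regulator of innate immune signalling and of cell junctions, showed the same order with a gap between the comparators. It had 11.2, 11.1 and 12.5 CPM in siSOX2b, 32.8, 32.1 and 35.0 CPM in siTP63b and 24.3, 24.3 and 24.0 CPM in siGRHL2a, with log2FC of -1.53 and -1.07. FLNC, a filamin that cross-links actin, had 2.67, 1.66 and 3.69 CPM in siSOX2b and 4.51 to 7.98 CPM in the others (log2FC -1.35). LCK, a kinase of the Src family best known from T cells, had 2.05, 1.23 and 1.53 CPM in siSOX2b and 3.58 to 6.22 CPM in the others (log2FC -1.46). NWD1, which codes for a protein with NACHT and WD40 domains, had 1.77, 1.48 and 1.44 CPM in siSOX2b and 2.75 to 5.11 CPM in the others (log2FC -1.33). These genes were at low levels, and their spread was wider in proportion.

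**Figure D3:**
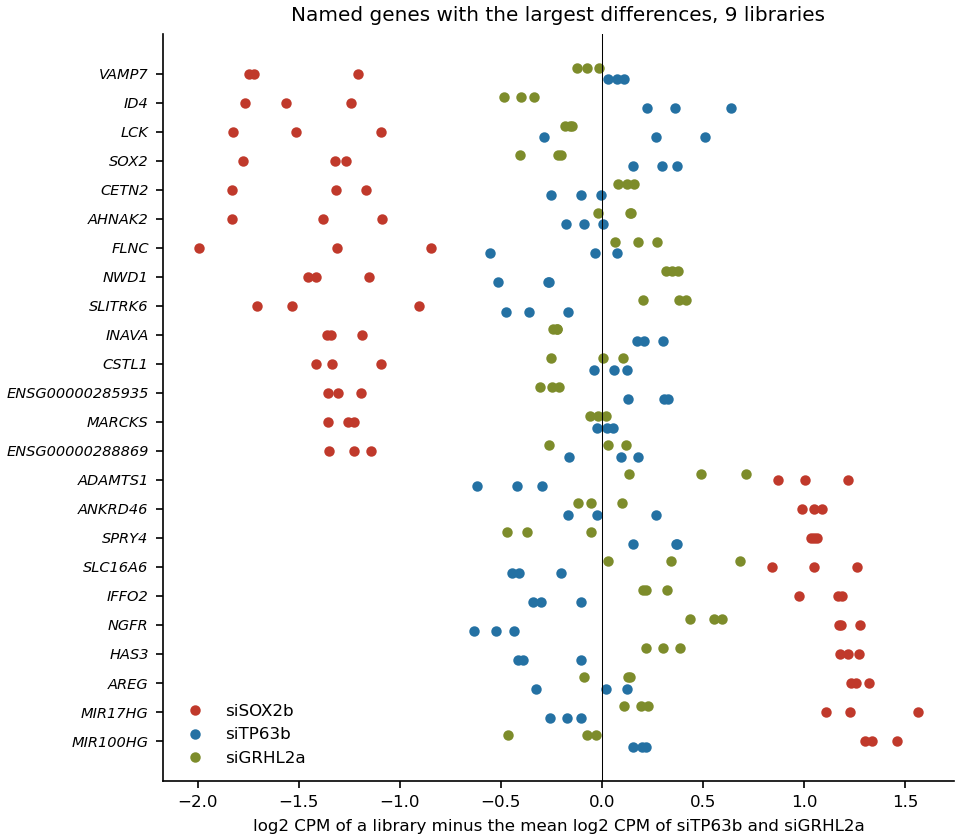
Log2 CPM of each of the 9 libraries minus the mean log2 CPM of siTP63b and siGRHL2a (horizontal axis) for the 24 genes with the largest differences by the naming rule (rows). The rule took only genes whose siSOX2b libraries lay apart from all others, so the gap of the siSOX2b points (red) in every row is built in. The order of siTP63b (blue) and siGRHL2a (green) changes from gene to gene.

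A stricter test, glmTreat of edgeR against a log2FC of 0.75 in each comparison, kept 23 lower and 5 higher genes. They included VAMP7, SOX2, CETN2, AHNAK2, INAVA, CSTL1 and MARCKS, which kept their call in every alternative tried. The further genes described next were chosen after their values were seen. Several code for membrane and signalling proteins whose levels in siTP63b and siGRHL2a were close. NRAS, a small GTPase that activates the ERK cascade, had 48.5, 48.1 and 50.3 CPM in siSOX2b, 95.4, 98.3 and 102 CPM in siTP63b and 99.1, 97.0 and 96.8 CPM in siGRHL2a. Its log2FC was -1.01 against siTP63b and about the same against siGRHL2a. GFRA1, the GDNF receptor, had 119, 123 and 133 CPM in siSOX2b against 284 to 297 CPM in the 6 others (log2FC -1.22). SDC1, a heparan sulfate proteoglycan of the epithelial surface, had 205, 197 and 234 CPM in siSOX2b against 416 to 515 CPM in the others (log2FC -1.18). IGFBP3, a secreted binding protein of insulin-like growth factors, had 222, 209 and 225 CPM in siSOX2b against 464 to 580 CPM in the others (log2FC -1.25).

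PHF6, a chromatin-binding PHD finger protein, had 50.2, 44.4 and 51.3 CPM in siSOX2b against 104 to 118 CPM in the 6 others (log2FC -1.19). FLOT2, a flotillin of membrane microdomains, had 19.4, 16.985 and 20.4 CPM in siSOX2b against 38.3 to 44.8 CPM in the others (log2FC -1.19). TRAK2, an adaptor for the transport of mitochondria, had 29.2, 25.6 and 29.6 CPM against 53.8 to 68.3 CPM (log2FC -1.16). The lowest log2FC of all, -3.53, was that of TCIM, a small regulator of Wnt signalling, which rested on 6, 2 and 0 counts in siSOX2b against 14 to 46 in each of the other libraries. BMF, a pro-apoptotic member of the BCL2 family, had 1.46, 0.80 and 0.81 CPM in siSOX2b against 2.81 to 4.04 CPM in the others (log2FC -1.72). FKBP1A, an immunophilin, overlaps ENSG00000274322 and SDCBP2-AS1, which have nearly its own counts and passed the same test, so its log2FC of -1.25 and theirs may come from shared reads.

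In the list of neural progenitor and glia genes, 3 of 38 tested members were lower than in both other knockdowns and 1 was higher, where 1.16% and 0.422% of all tested genes were. DESeq2 called 2 lower and 1 higher. The list's median log2FC was -0.13 beside 0 over all tested genes. Members also lay on the other side, and of 2 chosen after their values were seen, the semaphorin receptor NRP1 had a log2FC of 0.57 and the cadherin CDH2 one of 0.35, both within the fold threshold. ID4, an inhibitor of basic helix-loop-helix factors that is active in neural progenitors, had 5.83, 4.06 and 4.67 CPM in siSOX2b, 17.7, 16.1 and 21.5 CPM in siTP63b and 10.9, 10.5 and 9.85 CPM in siGRHL2a (log2FC -1.51). The value is uncertain, since the overlapping noncoding gene LNC-LBCS had 135% of its counts. L1CAM, a neural cell adhesion molecule, had 21.4, 22.8 and 18.8 CPM in siSOX2b and 28.6 to 48.3 CPM in the others (log2FC -0.77, or -0.70 without siSOX2b replicate 3 and -0.71 without siTP63b replicate 3, which ended its call). ERBB4, a neuregulin receptor, had 4.62, 3.14 and 3.28 CPM in siSOX2b, 7.35 to 8.85 CPM in siTP63b and 4.77 to 5.49 CPM in siGRHL2a (log2FC -0.81).

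SLITRK6, a synapse-organizing membrane protein of the inner ear and the nervous system, was outside that list and had 5.80, 3.75 and 3.33 CPM in siSOX2b, 9.65, 7.81 and 8.44 CPM in siTP63b and 14.5, 12.5 and 14.1 CPM in siGRHL2a (log2FC -1.32). NRP2, a semaphorin receptor, was the member of the neural list that was higher in siSOX2b, with 8.75, 9.42 and 10.7 CPM against 7.14 to 7.30 CPM in siTP63b and 2.93 to 4.35 CPM in siGRHL2a (log2FC 0.88). Its call was lost in 5 of the 9 fits that left out 1 library, those without siSOX2b replicate 2 or 3 (0.89 and 0.80) or without siTP63b replicate 1, 2 or 3 (0.88 to 0.89). Of 12 tested partners of SOX2 in pluripotent cells, 0 passed in either direction in edgeR or DESeq2, with 1 lower and 1 higher at an unadjusted p below 0.05. Of 13 SOX family genes, SOX2 was the one that differed from both. Of 49 tested genes of distal chromosome 3q, SOX2 and SOX2-OT were the 2 that were lower than in both. Of all tested genes 1.16% were lower and 0.422% higher than in both. SOX2 is the siRNA target and SOX2-OT includes its reads, so these counts describe the knockdown and not the lists.

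The motif that SOX2 binds was looked for in promoters. Its core, CATTGT, was searched on both strands in windows of RefSeq (GRCh38.p14) that run from 250 bases before a start to 50 after it, and 11% of all 27326 windows held it. Windows could be matched to 159 of the 287 lower, 55 of the 104 higher and 13575 of the 24671 tested genes. With fewer than 80% of the genes matched, a comparison of the shares is void and none is drawn. Windows were looked at for only part of the genes of the naming rule with the largest differences. Those of CSTL1, NWD1, NGFR, ADAMTS1, ANKRD46 and SLC16A6, among others, were not. The windows of VAMP7, ID4, LCK, SOX2, CETN2, AHNAK2, FLNC, INAVA, SPRY4, IFFO2, HAS3, AREG, MIR17HG and MIR100HG did not hold the core. The windows of MARCKS and SLITRK6 held it. The MARCKS promoter is shown because that gene had the smallest adjusted p of these genes, with the match in capitals. The printed part is the 250 bases before the start, chr6:113857095-113857344 on the plus strand of GRCh38. The match starts 106 bases before the start site and describes the letters, not a binding site.
MARCKS promoter: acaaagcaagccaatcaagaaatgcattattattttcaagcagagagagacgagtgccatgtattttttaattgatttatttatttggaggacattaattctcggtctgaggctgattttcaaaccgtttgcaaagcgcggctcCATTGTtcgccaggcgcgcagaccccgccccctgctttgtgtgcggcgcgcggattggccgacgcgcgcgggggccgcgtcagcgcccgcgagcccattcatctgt

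Of 25 tested genes of the distal lung and gastric list, 2 were lower than in both and 0 were higher, beside 1.16% and 0.422% of all tested genes. FOXA1, a pioneer factor of lung and gut endoderm, had 7.57, 8.28 and 8.99 CPM in siSOX2b, 27.1, 26.9 and 29.6 CPM in siTP63b and 12.02, 10.5 and 10.5 CPM in siGRHL2a. The gap was large against siTP63b (log2FC -1.76) and small against siGRHL2a (-0.42, adjusted p = 0.00487, edgeR). CEACAM5, a cell adhesion molecule of gut and distal lung tumours, had 2.98, 3.32 and 3.77 CPM in siSOX2b and 4.77 to 6.54 CPM in the others (log2FC -0.76). FOXA2, a related factor of the same list chosen after its values were seen, had a log2FC of 0.62 (adjusted p = 0.00726, edgeR), within the fold threshold. CEACAM5 lost its call in 4 of 9 fits that left out a library, with -0.68 without siSOX2b replicate 1, -0.74 without siTP63b replicate 2 and -0.75 without siGRHL2a replicate 1 or 3, and the overlapping ENSG00000267881 had 121% of its counts. Of 17 secretory and ciliated airway genes, the mucin MUC4 was the one lower than in both, with 3.66, 3.88 and 3.19 CPM in siSOX2b, 7.87 to 10.2 CPM in siTP63b and 4.20 to 6.20 CPM in siGRHL2a. Its log2FC was -0.90, and DESeq2 called 0 members of this list. The edgeR call of MUC4 was lost in 5 of the 9 fits. They were those without any 1 of the siSOX2b libraries (-0.96 to -0.83), siTP63b replicate 2 (-0.89) or siGRHL2a replicate 3 (-0.81).

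Of 43 tested genes of squamous and airway basal cell identity, 2 were higher than in both other knockdowns and 1 was lower, against 0.422% and 1.16% of all tested genes. DESeq2 called 2 higher and 0 lower, and at an unadjusted p under 0.05 against the mean 23 were higher and 6 lower in edgeR. The list's median log2FC was 0.15, made up of 0.38 against siTP63b and -0.16 against siGRHL2a. NGFR, the p75 neurotrophin receptor of basal cells, had 89.2, 96.1 and 89.9 CPM in siSOX2b, 25.6, 27.6 and 29.3 CPM in siTP63b and 53.6, 58.3 and 59.9 CPM in siGRHL2a (log2FC 1.21, standard error 0.057, adjusted p = 4.6e-16, edgeR). NGFR-AS1 on the same locus had 97.1% of its counts, so reads of either gene may be in that value. GJB2, the gap junction protein connexin 26, had 58.3, 59.3 and 57.4 CPM in siSOX2b, 24.2 to 25.8 CPM in siTP63b and 45.3 to 47.3 CPM in siGRHL2a (log2FC 0.78). Both genes were lowest in siTP63b, and the difference from siGRHL2a was the smaller one.

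KRT15, a keratin of basal cells, was scattered within the groups. It had 46.7, 75.7 and 88.9 CPM in siSOX2b, 139, 46.8 and 173 CPM in siTP63b and 144, 181 and 96.0 CPM in siGRHL2a, so siTP63b replicate 2 overlapped siSOX2b. Its log2FC of -0.88 became -0.66 without siSOX2b replicate 1, -0.82 without siTP63b replicate 1 and -0.70 without siTP63b replicate 3, and each ended the call. In the cornified differentiation list PRDM1, a transcriptional repressor, was the 1 gene of 43 that differed from both, at a log2FC of -0.77. DESeq2 called 0 members of this list. Of all tested genes 1.16% were lower and 0.422% higher than in both. PRDM1 kept its call in only 3 of the 9 fits with a library left out, being lost without any siSOX2b library (-0.83 to -0.65), without siTP63b replicate 2 (-0.69) and without siGRHL2a replicate 2 or 3 (-0.70 and -0.77), and the overlapping ATG5 had 981% of its counts.

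The genes higher in siSOX2b held members of the pathway from growth factor receptors to ERK. Epidermal and fibroblast growth factor receptors activate RAS and ERK, and ERK activity induces ETS factors and a set of feedback inhibitors. Of 40 tested genes of the FGF, EGFR and ERK feedback list, 4 were higher than in both other knockdowns and 0 were lower, against 0.422% and 1.16% of all genes, and the list's median log2FC was 0.13. DESeq2 also gave 4 and 0, and at an unadjusted p below 0.05, with no fold threshold, edgeR had 17 members higher and 6 lower. AREG (ENSG00000109321.11, plus strand of chromosome 4, 74445136 to 74455005), which codes for amphiregulin, a ligand of EGFR, had 15.6, 14.9 and 14.7 CPM in siSOX2b. It had 6.81, 6.33 and 4.97 CPM in siTP63b and 6.87, 5.87 and 6.82 CPM in siGRHL2a. The 2 comparators overlapped each other and siSOX2b stood above both, with a log2FC of 1.26 (standard error 0.106, adjusted p = 1.34e-10, edgeR) that kept its call in every alternative tried.

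DUSP6, a phosphatase that inactivates ERK, had 60.7, 66.6 and 65.8 CPM in siSOX2b, 26.4, 26.7 and 29.8 CPM in siTP63b and 45.7, 43.0 and 41.5 CPM in siGRHL2a (log2FC 0.89). SPRY4, a Sprouty inhibitor of receptor signalling, had 8.78, 8.71 and 8.90 CPM in siSOX2b, 4.72 to 5.51 CPM in siTP63b and 3.07 to 4.10 CPM in siGRHL2a (log2FC 1.04), with the antisense SPRY4-AS1 at 195% of its counts. ETV4, an ETS factor induced by ERK, had 25.8, 29.7 and 28.2 CPM in siSOX2b, 14.8 to 23.4 CPM in siTP63b and 13.0 to 14.6 CPM in siGRHL2a (log2FC 0.82). The 3 genes stood above both comparators in every library, which the naming rule required of SPRY4. They differed in which comparator was the lower. Other members of the list, chosen after their values were seen, were not called. The log2FC was -0.54 for SPRY1, -0.08 for SPRY2, 0.09 for DUSP4, 0.13 for DUSP5, 0.57 for ETV5 and -0.375 for EGFR. NRAS, lower in siSOX2b as given above, belongs to the same pathway.

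Other genes with large increases were of several kinds. IFFO2, an intermediate filament family gene, had 288, 284 and 248 CPM in siSOX2b, 102, 99.6 and 117 CPM in siTP63b and 147, 157 and 145 CPM in siGRHL2a (log2FC 1.11, standard error 0.054, adjusted p = 9.51e-16, edgeR). HAS3, a hyaluronan synthase, had 81.2, 78.9 and 84.4 CPM in siSOX2b, 26.2 to 32.5 CPM in siTP63b and 40.7 to 45.7 CPM in siGRHL2a (log2FC 1.22), and the overlapping CHTF8 had 75.2% of its counts. ANKRD46, an ankyrin repeat gene, had 40.5, 41.5 and 38.8 CPM in siSOX2b and 17.4 to 23.5 CPM in the 6 others (log2FC 1.04). For ANKRD46 as for AREG the comparators overlapped, whereas IFFO2 and HAS3 were lowest in siTP63b.

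ADAMTS1, a secreted metalloprotease, had 11.1, 10.1 and 12.9 CPM in siSOX2b, 3.60 to 4.50 CPM in siTP63b and 6.07 to 9.05 CPM in siGRHL2a (log2FC 1.02). SLC16A6, a monocarboxylate transporter, had 8.81, 11.8 and 10.2 CPM in siSOX2b and 3.60 to 7.89 CPM in the others (log2FC 1.05), with ARSG at 425% of its counts, so it is uncertain. KRT36, a hair keratin with the largest increase of all (log2FC 3.34), was chosen after its values were seen and rested on 1 library, with 192, 15 and 12 counts in siSOX2b and 4 to 11 in each library elsewhere. Without siSOX2b replicate 1 its log2FC was 1.10 (adjusted p = 0.217, edgeR).

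Among 30 tested cytokine and NF-kB genes, 2 were higher and 2 lower than in both, beside 0.422% and 1.16% of all tested genes, and DESeq2 called 2 higher and 1 lower. IL1A, an alarmin of keratinocytes, had 68.9, 66.8 and 68.0 CPM in siSOX2b, 20.1 to 25.1 CPM in siTP63b and 48.9 to 56.7 CPM in siGRHL2a (log2FC 0.98). IL36G, another epithelial cytokine of the interleukin 1 family, had 6.21, 4.74 and 3.24 CPM in siSOX2b, 0.86 to 0.90 CPM in siTP63b and 2.29 to 3.03 CPM in siGRHL2a (log2FC 1.67, and 1.42 without siSOX2b replicate 1, which ended its call). Complement C3 had 2.33, 2.28 and 2.83 CPM in siSOX2b and 2.94 to 7.64 CPM in the others (log2FC -1.04), with the overlapping GPR108 at 393% of its counts. It lost its call without siSOX2b replicate 1 or 2 (-1 and -0.99) and without siGRHL2a replicate 1 or 2 (-0.98 and -1.02). The chemokine CCL28 was the other lower gene, at 1.41 CPM or less in every library.

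NRF2 is the transcription factor that turns on antioxidant and detoxifying genes, and 28 of its 36 tested target genes had a log2FC below 0, with a median of -0.13. Of the 36, 2 were lower than in both other knockdowns and 0 were higher, beside 1.16% and 0.422% of all tested genes. TXNRD1, a thioredoxin reductase of the same list chosen after its values were seen, went the other way, with a log2FC of 0.32 against siTP63b and 0.84 against siGRHL2a (0.58 against their mean, within the fold threshold). AKR1B10, an aldo-keto reductase, had 192, 188 and 192 CPM in siSOX2b, 647, 615 and 592 CPM in siTP63b and 334, 322 and 308 CPM in siGRHL2a (log2FC -1.23, standard error 0.0479, adjusted p = 9.23e-18, edgeR). SLC7A11, the cystine transporter that feeds glutathione synthesis, had 725, 725 and 667 CPM in siSOX2b, 1418, 1518 and 1419 CPM in siTP63b and 1129, 1074 and 1075 CPM in siGRHL2a (log2FC -0.84), with SLC7A11-AS1 at 58.8% of its counts. Both genes fell in the order siTP63b, siGRHL2a, siSOX2b, with no overlap of libraries. PGAM1, a glycolytic mutase, was the 1 gene of 34 in the glycolysis and hypoxia list that differed from both, with 91.8, 80.7 and 108 CPM in siSOX2b and 151 to 175 CPM in the others (log2FC -0.80, and -0.71 without siSOX2b replicate 2, which ended its call).

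In the BMP, TGF-beta and ID list, ID4 and INHBB were the 2 of 33 that were lower than in both, with 0 higher, beside 1.16% and 0.422% of all tested genes. INHBB, a subunit of activin B, had 0.99, 1.05 and 1.80 CPM in siSOX2b, 3.99 to 4.61 CPM in siTP63b and 1.67 to 2.93 CPM in siGRHL2a (log2FC -1.32), so 1 siGRHL2a library overlapped siSOX2b. The call was lost without siSOX2b replicate 1 or 2 (-1.17 and -1.20) or siGRHL2a replicate 2 (-1.20). LEF1, a transcription factor of the Wnt pathway, had 10.1, 11.2 and 10.3 CPM in siSOX2b and 15.7 to 19.6 CPM in the others (log2FC -0.76), and was the 1 of 39 Wnt genes that differed from both. E2F2, an E2F factor of the cell cycle, had 6.76, 7.23 and 6.92 CPM in siSOX2b and 10.1 to 13.3 CPM in the others (log2FC -0.75), as the 1 gene of 50 in the cell cycle list. Both lay at the threshold, and DESeq2 called LEF1 but not E2F2. LEF1 lost its call without siSOX2b replicate 1 or 3, siTP63b replicate 1 or siGRHL2a replicate 1, and E2F2 without siSOX2b replicate 1 or 3, siTP63b replicate 1 or 3 or siGRHL2a replicate 2, at log2FC from -0.75 to -0.73 in these fits.

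Over 23 lists with 714 distinct tested members, 19 members (2.66%) were lower and 9 (1.26%) higher than in both other knockdowns, beside 1.16% and 0.422% of all tested genes. The lists were chosen with earlier results of these data known, and the 19 include SOX2, the siRNA target, and SOX2-OT. These shares are therefore no test of the lists. With the list of cell type markers left aside, 8 lists had 0 members called in either direction in edgeR, among them the p53, Notch, interferon-stimulated, mesenchymal, cholesterol and YAP lists. DESeq2 also called 0 of their 224 tested members, and at an unadjusted p below 0.05, with no fold threshold, 46 were lower and 51 higher. The interferon list had 30 of its 38 tested members below 0, at a median log2FC of -0.11. Among the markers of other cell types, VWF, best known from endothelium, had 4.22, 2.83 and 3.77 CPM in siSOX2b and 5.03 to 7.40 CPM in the others (log2FC -0.79), and it lost its call without siSOX2b replicate 2 (-0.63), siTP63b replicate 1 or siGRHL2a replicate 1 (-0.74 each).

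Host genes of microRNAs led the long noncoding RNAs that were higher. A microRNA is cut from a hairpin in a longer primary transcript, first by DROSHA with DGCR8 in the nucleus and then by DICER1, and its bases 2 to 8, the seed, pair with target mRNAs. MIR17HG (ENSG00000215417.13, plus strand of chromosome 13, 91347820 to 91354579), the host of the miR-17-92 cluster, had 19.8, 24.955 and 18.2 CPM in siSOX2b, 7.87, 7.50 and 7.07 CPM in siTP63b and 9.11, 9.90 and 9.67 CPM in siGRHL2a (log2FC 1.32, standard error 0.0964, adjusted p = 8.2e-12, edgeR). MIR100HG (ENSG00000255248.10, minus strand of chromosome 11), the host of let-7a-2, miR-100 and miR-125b-1, had 21.1, 23.0 and 20.6 CPM in siSOX2b, 9.29 to 9.72 CPM in siTP63b and 6.05 to 8.18 CPM in siGRHL2a (log2FC 1.36). In both genes the siSOX2b libraries lay above every other library, which the naming rule required.

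The mature sequences of the 6 main microRNAs of the MIR17HG cluster, and of 2 further ones whose hairpin genes are described next, are given from RefSeq (GRCh38.p14) with the seed in capitals. They show that miR-17-5p and miR-20a-5p share the seed AAAGUGC, that miR-19a-3p and miR-19b-3p share GUGCAAA, and that each of the others has a seed of its own among those listed. These libraries held polyadenylated RNA, so mature microRNAs were not measured.
miR-17-5p: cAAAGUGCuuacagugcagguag
miR-18a-5p: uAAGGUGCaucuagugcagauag
miR-19a-3p: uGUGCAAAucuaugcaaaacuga
miR-20a-5p: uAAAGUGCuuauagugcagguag
miR-19b-3p: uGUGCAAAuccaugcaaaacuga
miR-92a-3p: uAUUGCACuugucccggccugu
miR-205-5p: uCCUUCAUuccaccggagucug
miR-27b-3p: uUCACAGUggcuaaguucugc

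Among the 165 microRNA genes tested, 10 (6.06%) were higher against the mean and 1 was lower, and 5 (3.03%) were higher than in both other knockdowns while 0 were lower in edgeR, beside 0.422% and 1.16% of all genes. DESeq2 called 4 higher and 0 lower, and at an unadjusted p below 0.05 edgeR had 23 higher and 15 lower. This class was singled out after its values were seen. The 5 were MIR17, MIR18A, MIR205, MIR27B and MIR639. Reads over such a gene, 71 to 110 bases long here, come from primary or host transcripts. MIR17 and MIR18A, which lie in MIR17HG, had a log2FC of 3.20 and 3.12, but rested on few counts. MIR17 had 42, 51 and 13 counts in siSOX2b and 3 to 5 in each other library, and MIR18A had 51, 70 and 11 counts against 3 to 9. MIR205, in the basal cell transcript MIR205HG, had 54.0, 54.4 and 48.4 CPM in siSOX2b, 23.4, 18.6 and 22.8 CPM in siTP63b and 35.0, 34.8 and 33.6 CPM in siGRHL2a (log2FC 0.94, standard error 0.0679, adjusted p = 5.72e-12, edgeR). MIR27B, in AOPEP, had 16.4, 14.8 and 14.6 CPM in siSOX2b, 6.06 to 6.61 CPM in siTP63b and 10.5 to 12.9 CPM in siGRHL2a (log2FC 0.84).

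The hairpin genes described here differed more than the genes that hold them. They or their neighbours had been picked for being higher in siSOX2b and their hosts had not, so part of this excess is built in. Over all microRNA genes tested the median log2FC was 0.05. MIR205HG as a whole had a log2FC of 0.27 and AOPEP one of 0.16. The counts over MIR205 were 8.70%, 8.86% and 7.79% of those of MIR205HG in siSOX2b, 5.35%, 4.62% and 5.17% in siTP63b and 5.78%, 5.79% and 5.14% in siGRHL2a. The counts over MIR27B were 3.39%, 3.28% and 3.17% of those of AOPEP in siSOX2b, 1.94%, 1.72% and 1.70% in siTP63b and 2.30%, 2.23% and 2.60% in siGRHL2a. The share was thus higher in each siSOX2b library than in any other, with a ratio of the mean shares of 1.59 for MIR205 and 1.58 for MIR27B. MIR23B, beside MIR27B, had a ratio of 1.70 without overlap, MIR24-1 had 1.37 and MIR639 in DNAJB1 had 1.51, both with overlap. In MIR17HG the share of MIR17 was 6.58%, 6.29% and 3.21% in siSOX2b and 0.962% to 2.55% in the others, and that of MIR18A overlapped, with siSOX2b replicate 3 at 2.71% and siTP63b replicate 3 at 4.59%. These shares are a description without a test.

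**Figure D4:**
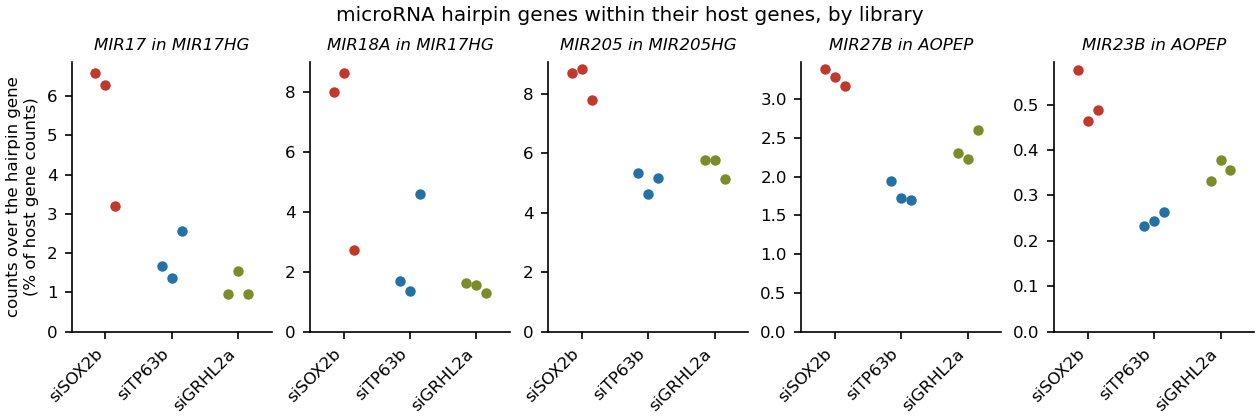
Counts over 5 microRNA hairpin genes as a percentage of the counts of the gene that holds them (vertical axes, from 0, each panel on its own scale) in the 3 libraries of each knockdown (points). The siSOX2b libraries lie above the 6 others for MIR17, MIR205, MIR27B and MIR23B, and siSOX2b replicate 3 falls among the others for MIR18A.

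Genes of microRNA processing, also singled out after the fact, were measured in the same libraries. DICER1, which cuts the precursor hairpin, had 138, 134 and 117 CPM in siSOX2b, 250, 272 and 231 CPM in siTP63b and 197, 191 and 186 CPM in siGRHL2a (log2FC -0.76, adjusted p = 1.29e-11, edgeR), and was lower than in both. DGCR8 had 51.6, 50.6 and 49.2 CPM in siSOX2b and 59.2 to 65.5 CPM in the others, a log2FC of -0.28 (adjusted p = 0.000377, edgeR) that is within the fold threshold. DROSHA differed by -0.12 (adjusted p = 0.0508, edgeR). Other such genes were also within the fold threshold. The log2FC was -0.42 for PRKRA, -0.39 for AGO1, 0.10 for XPO5, 0.14 for TARBP2 and 0.03 for AGO4. AGO2, the Argonaute that cleaves targets and also carries siRNAs, had 188, 188 and 153 CPM in siSOX2b, 91.4 to 115 CPM in siTP63b and 109 to 130 CPM in siGRHL2a, with a log2FC of 0.68 (adjusted p = 2.32e-09, edgeR), just inside the threshold. The part of these genes in the hairpin counts was not tested.

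The level of a gene in each knockdown was also described relative to the negative control. These values come from a fit of all 15 libraries in which the column set and the knockdown cannot be told apart, and they are given without calls. Of the 30 named genes lower than in both other knockdowns, 25 were below siNC1 in siSOX2b and 5 above it, and 11 lay within 0.75 of siNC1 on the log2 scale. Of the 15 named higher genes, 14 were above siNC1 and 1 below, and 7 lay within 0.75. These genes had been picked for siSOX2b being the lowest or highest of the knockdowns, so a lean to 1 side of siNC1 is partly built in. The 30 include SOX2, the siRNA target, and SOX2-OT, which includes its reads. No share over all tested genes is given beside these counts. With 11 of the 30 and 7 of the 15 within 0.75 of siNC1, the pattern took more than 1 form.

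In the first form siSOX2b departed from siNC1 while the other knockdowns stayed near it. VAMP7 had a log2FC against siNC1 of -1.44 in siSOX2b, 0.19 in siTP63b and 0.05 in siGRHL2a. NRAS had -1.05, -0.03 and -0.05 in the same order, and BMF had -1.54, 0.25 and 0.12. AREG had 1.18, -0.13 and -0.03. In the second form siSOX2b was close to siNC1 and the other knockdowns were not. MARCKS had -0.06 in siSOX2b, 1.24 in siTP63b and 1.20 in siGRHL2a. INAVA had -0.12, 1.41 and 0.95, AHNAK2 had -0.30, 1.03 and 1.20, and ANKRD46 had 0.08, -0.92 and -0.98.

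In the last form all 3 knockdowns stood on the same side of siNC1 and siSOX2b went farther. CETN2 had -2.29, -0.98 and -0.74, and SOST, an inhibitor of Wnt and BMP signalling chosen after its values were seen, had -3.45, -1.91 and -1.69. MIR100HG had 3.16, 1.98 and 1.61, and IFFO2 had 2.35, 1.00 and 1.49. ID4 and IGFBP3 were on the same side but went less far in siSOX2b, with 3.93, 5.86 and 5.03 for ID4 and 0.58, 1.73 and 1.95 for IGFBP3. MIR17HG was above siNC1 in siSOX2b (0.83) and below it in siTP63b (-0.66) and siGRHL2a (-0.31).

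**Figure D5:**
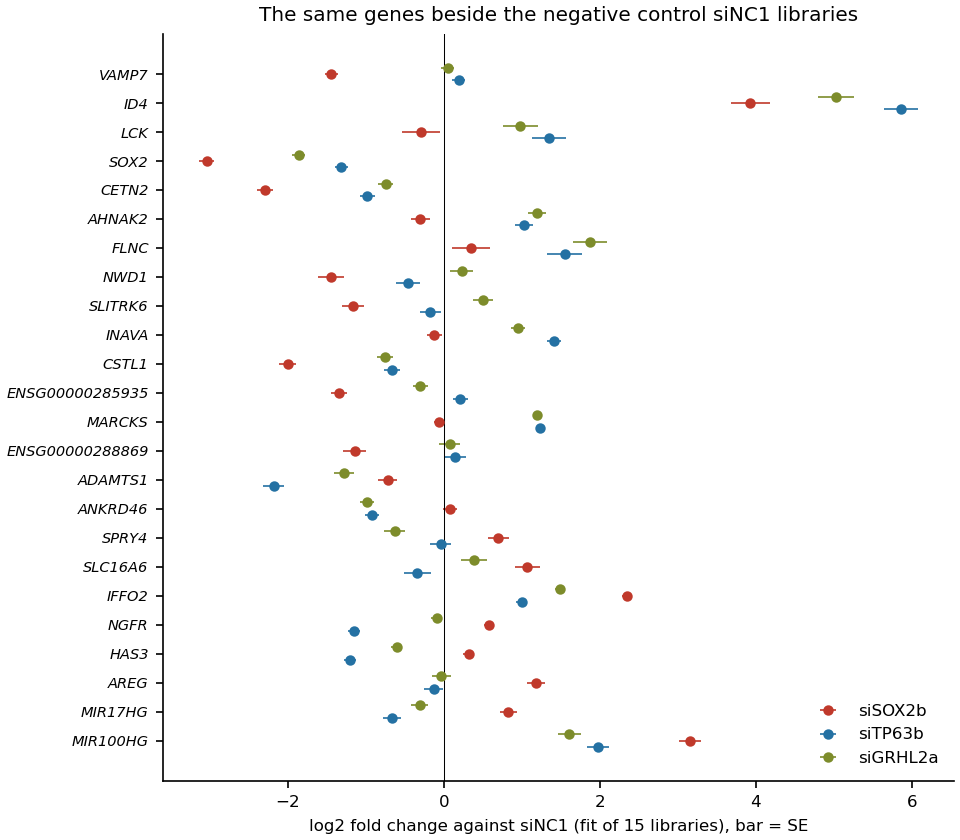
Log2FC against the negative control siNC1 in a fit of 15 libraries (horizontal axis, bars are standard errors) of siSOX2b (red), siTP63b (blue) and siGRHL2a (green) for the same 24 genes (rows). VAMP7 and AREG are near 0 in the comparators, MARCKS and ANKRD46 are near 0 in siSOX2b, and all 3 groups lie on 1 side for SOX2, CETN2, IFFO2 and MIR100HG.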

How the data were processed

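Poly(A) RNA was reverse-transcribed with random hexamers, amplified by PCR and sequenced in paired-end mode. The authors aligned the reads to hg38 and counted them on Gencode release 40 genes. The submitters' processing notes name HISAT2 2.2.1 and featureCounts 2.0.1. The strand setting, and whether reads or fragments were counted, are not given in the sources used here. The deposited values were raw counts of 61544 genes without normalization. The 15 count columns were matched to libraries by name, and 0 were left over. For 61445 of the identifiers a gene type was found in Gencode release 44.

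Counts were scaled by TMM and analysed with edgeR 4.0.16 in R 4.3.3 (filterByExpr by group, glmQLFit and glmQLFTest), with Benjamini-Hochberg adjustment over the 24671 genes tested. Only the 9 libraries compared entered the fit, since the others belong to another column set. The 24 gene lists and the groups were chosen with earlier results of these data known. Named genes were SOX2, SOX2-OT, TP63, GRHL2, KLF5, PTPRZ1 and MDK, and genes that differed from both other knockdowns. Of the latter, those averaging 100 counts or more, with the siSOX2b libraries apart from the 6 others, gave the 12 largest decreases and 8 largest increases of protein-coding genes and the 2 largest each way of long noncoding RNA genes. From each list, up to 3 called members were added in the order of their adjusted p. Other genes were chosen after their values were seen. Some genes that the rule names are not reported here. An overlapping gene with 50% of the counts or more marked a value as uncertain. Library totals set the precision, and a low count has a wide relative error. The steps were tested on simulated counts. Alternatives were other scalings and filters, a replicate block, all 15 libraries, DESeq2 1.42.0, other fold thresholds, glmTreat, halved or thinned counts, protein-coding genes alone, and each library left out.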

Additional observations from a re-analysis of the deposited data

How the results depend on the processing

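The decrease of SOX2 kept its direction and its call under every alternative, and no named gene changed sign. Without a fold threshold the genes lower than both were 1374 and those higher 1126 (against the mean 3023 and 3089, list members 60 and 54). With an absolute log2FC above 1 they were 136 and 45 (257 and 108, list members 8 and 4). With glmTreat they were 23 and 5 (43 and 19, list members 1 and 1). With protein-coding genes alone, 311 were lower and 131 higher against the mean and 61 higher than both, since fewer genes were tested. Leaving out each library in turn gave 406 to 512 genes lower and 204 to 297 higher against the mean, 214 to 306 lower and 83 to 118 higher than both, and 13 to 16 and 8 to 11 list members. Of the 287 and 104 genes, DESeq2 shared 236 and 85 of its 236 and 87. The fit of 15 libraries gave 345 and 126, of which 285 and 102 were shared. Of the 45 named genes that differed from both, 32 kept that call with each library left out and 9 kept it under all alternatives. The replicate number as a block gave 281 and 103 genes. Any pairing of the libraries by number was weak, since same-numbered libraries had deviations correlated at -0.0102 to 0.0355. Even so, 6 of the 9 libraries correlated best with one of their own number. Genes with few counts, MIR17 and MIR18A among them, are limited by depth.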
